A study of Homo sapiens with 18 samples.

Results

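The CLK and SRPK kinases, the protein kinases that phosphorylate SR splicing factors, were followed through heat shock and recovery in SW620 cells, a human colon cancer line. The members were the 6 rows of the deposited count table that carry the symbols CLK1, CLK2, CLK3, CLK4, SRPK1 and SRPK2. They were chosen by name, of 26485 gene symbols in the table, and all 6 of 6 were among the 12832 genes that passed the filter on low counts (above 1 CPM, counts per 1000000 counts of a TMM-scaled library, in at least 3 libraries). RNAseq was available for 18 libraries in 6 groups of 3. All cells were reverse transfected with siRNA, either scramble or siLonp1, which targets the mRNA of the mitochondrial protease Lonp1. In each siRNA arm, Ctrl cells stayed at 37 °C, HS cells spent 1 h at 42 °C, and HS+REC cells had another hour at 37 °C after that same 1 h of heat. The groups are therefore Ctrl scramble, HS scramble, HS+REC scramble, Ctrl siLonp1, HS siLonp1 and HS+REC siLonp1. One cell line was used, so the values describe SW620 and no other cell, and the siLonp1 groups rest on a knockdown, not on loss of the gene.

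SR proteins are splicing factors whose tail of arginine and serine repeats must be phosphorylated for them to enter the nucleus and to take part in splicing. SRPKs act mainly in the cytoplasm, where phosphorylation allows the import receptor transportin-3 (TNPO3) to carry SR proteins into the nucleus. CLKs are nuclear dual-specificity kinases that phosphorylate SR proteins further and release them from nuclear speckles, and heat shock is known to lower SR protein phosphorylation through protein phosphatase 1 activity. Pre-mRNAs of CLK1 and CLK4 are known to keep introns in part of their transcripts in the nucleus and to complete splicing after stress.

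Library totals ranged from 30815860 to 47279297 counts, and the fewest reads of any member in a library were the 140 of CLK4 in Ctrl siLonp1. LONP1, the siRNA target, averaged 220.6 CPM in Ctrl scramble and 20.4 in Ctrl siLonp1, 213.8 and 11.7 in HS, and 218.2 and 27.2 in HS+REC. Its remaining level thus differed between the 3 siLonp1 groups, which bears on each comparison of the arms. The epithelial genes EPCAM, KRT8, KRT18, CDH1 and VIL1 were abundant in every library (84.3 CPM or more). Of the other 4 colon epithelium markers, CDX2 measured 9.96 to 30.5 CPM, CDH17 0.946 to 12.6 and KRT20 0.248 to 1.25, and CDX1 was at 0 in all. The summed level of 8 markers of other cell types was higher in treated groups, going from 19.0 to 21.8 CPM in Ctrl scramble to 26.0 to 32.1 in HS scramble and 41.3 to 42.3 in HS+REC scramble, and from 23.5 to 25.9 to 30.2 to 36.0 and 46.0 to 51.0 in siLonp1. Of these only CD68 and COL1A1 exceeded 17 counts in any library. PTPRC, CD3E, COL1A2, DCN and CDH5 had at most 7, and the part of these markers in the results was not tested.

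The genes lie on 6 chromosomes. By the GENCODE release 44 annotation of hg38, the build of the files, CLK1 occupies chr2:200853009-200864691 (minus strand), CLK2 chr1:155262868-155278491 (minus), CLK3 chr15:74598500-74645414 (plus), CLK4 chr5:178602664-178630615 (minus), SRPK1 chr6:35832966-35921342 (minus) and SRPK2 chr7:105110704-105399308 (minus). The canonical transcript has 13 exons in each CLK gene and 16 in each SRPK gene. Transcripts annotated as retained introns numbered 8 for CLK1, 8 for CLK3, 7 for CLK4, 4 for SRPK1, 2 for SRPK2 and 0 for CLK2. For comparison, 8.98% of 11333 protein-coding genes tested had 7 or more such transcripts. The deposited values are read counts summed over each gene, so spliced mRNA and transcripts that keep an intron could not be told apart. Reads of genes that overlap on the opposite strand are a further limit, because the strand setting of the counting is not given in the sources used here. HCN3, which overlaps CLK2, had 107 to 206 counts per library and LHFPL5, which overlaps SRPK1, had 0 to 3. EDC3, which overlaps CLK3, had 1849 to 3337 and KMT2E, which overlaps SRPK2, had 2324 to 4281. CLK2P1, a pseudogene of CLK2, had 0 to 3 counts, and how reads shared between these copies were assigned is not known.

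Heat shock raised CLK1, CLK4 and CLK3 in both siRNA arms, and the other members moved little. With edgeR's quasi-likelihood test and Benjamini-Hochberg adjustment over all genes (passed at an adjusted p of at most 0.05), 3 of 6 members rose and 0 fell in scramble cells, where 18.6% of all genes tested rose and 17.3% fell. The same 3 members were also more than 2-fold higher, against 2.94% of all genes. In siLonp1 cells 4 members rose and 2 fell, where 20.2% of genes rose and 22.1% fell, and 3 were over 2-fold higher against 3.42%. Without HS siLonp1 replicate 1 both falls, of CLK2 (adjusted p = 0.103) and SRPK1 (0.0664), lost the call. The direction and size of each member's change are plotted with its interval in the plot of changes against Ctrl.

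**Figure D1:**
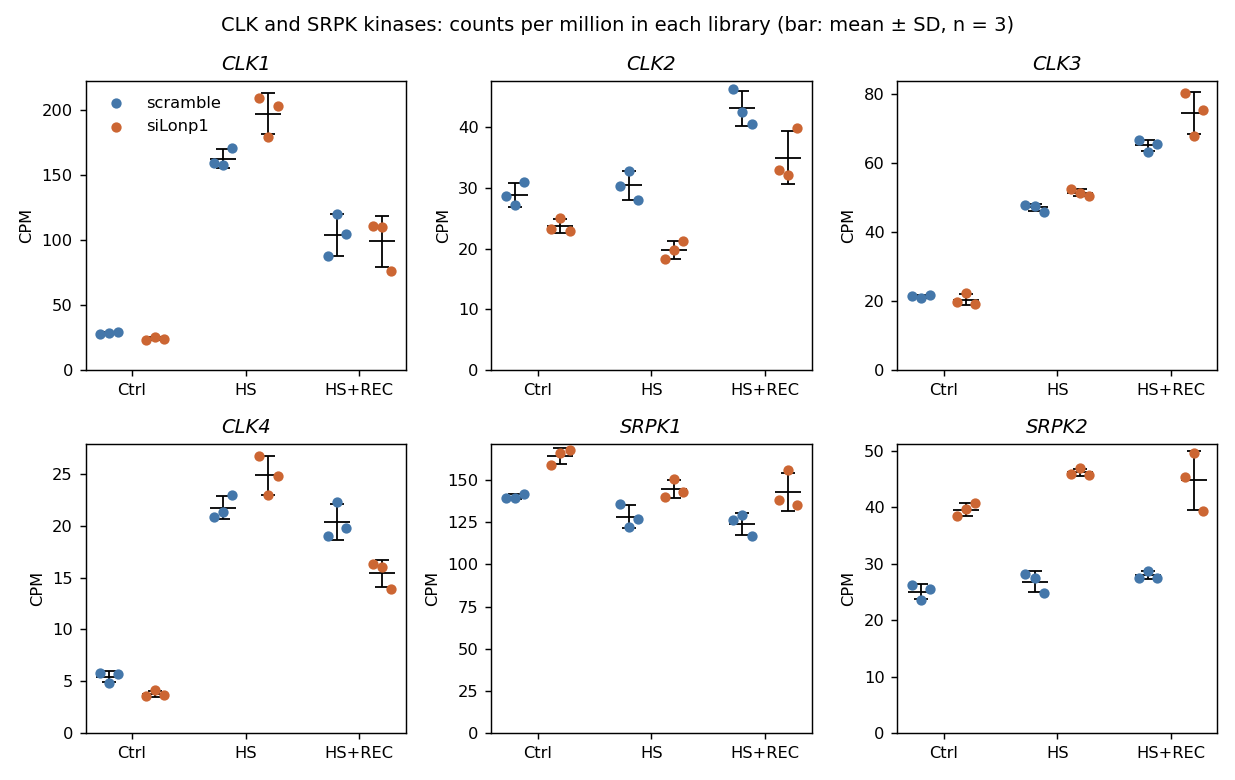
CPM (y axis) of the 6 kinases in each of the 18 libraries, by treatment (x axis) and siRNA arm (colour), with mean ± SD of each group as bars (n = 3). CLK1, CLK3 and CLK4 lie well above Ctrl in HS and HS+REC, CLK2 is highest in HS+REC, and SRPK2 separates by siRNA arm at every treatment.

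CLK1 showed the greatest rise of the 6 members in HS. In scramble cells it measured 27.6, 28.3 and 29.3 CPM in Ctrl, 159, 158 and 171 in HS, and 87.7, 120.0 and 104 in HS+REC. In siLonp1 cells it measured 23.3, 25.4 and 24.1 in Ctrl, 209, 179 and 203 in HS, and 111, 110.0 and 76.5 in HS+REC. No heated library overlapped a Ctrl library of either arm, and all HS libraries lay above all HS+REC libraries. The log2 fold change in HS was 2.52 (SE 0.12, adjusted p = 2.66e-14) in scramble, a 5.73-fold rise, and 3.02 (SE 0.12, adjusted p = 8.45e-16) in siLonp1, an 8.13-fold rise. After 1 h of recovery CLK1 was still 3.67-fold above Ctrl in scramble (log2 1.87, SE 0.11, adjusted p = 3.23e-12) and 4.09-fold above it in siLonp1 (log2 2.03, SE 0.12, adjusted p = 7.77e-13). In bulk RNA, fewer cells with the transcript and less of it per cell cannot be told apart.

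CLK4, the closest relative of CLK1, had the lowest CPM of the 6 in every group but HS siLonp1, where CLK2 was lower, and the second greatest rise in HS. Its libraries held 5.76, 4.86 and 5.71 CPM in Ctrl scramble, 20.9, 21.3 and 23.0 in HS scramble, and 19.0, 22.3 and 19.8 in HS+REC scramble. Those of siLonp1 cells held 3.56, 4.12 and 3.62 CPM in Ctrl, 26.8, 23.0 and 24.9 in HS, and 16.3, 16.1 and 13.9 in HS+REC. Ctrl and heated libraries did not overlap in either arm, whereas the HS and HS+REC libraries of scramble cells did overlap. Against Ctrl, CLK4 rose 4.0-fold in HS scramble (log2 2.0, SE 0.09, adjusted p = 5.06e-14) and 6.59-fold in HS siLonp1 (log2 2.72, SE 0.10, adjusted p = 2.49e-16). The rise in HS+REC was 3.75-fold in scramble (adjusted p = 7.93e-14) and 4.09-fold in siLonp1 (adjusted p = 7.49e-14).

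CLK3 rose in HS and stood higher still in HS+REC. It measured 21.5, 20.9 and 21.8 CPM in Ctrl scramble, 47.8, 47.6 and 45.9 in HS scramble, and 66.5, 63.2 and 65.4 in HS+REC scramble. The siLonp1 libraries held 19.8, 22.2 and 19.1 CPM in Ctrl, 52.3, 51.3 and 50.3 in HS, and 80.0, 67.8 and 75.2 in HS+REC. The 3 treatments did not overlap within either arm. In HS the log2 fold change was 1.14 (SE 0.07, adjusted p = 2.76e-12) in scramble and 1.33 (SE 0.07, adjusted p = 1.62e-13) in siLonp1. In HS+REC it was 1.6 (SE 0.07, adjusted p = 2.78e-15) and 1.87 (SE 0.07, adjusted p = 1.54e-16), which is 3.04-fold and 3.65-fold. Under each of the 14 alternative settings and left-out libraries tried for each of these comparisons, the HS and HS+REC rises of CLK1, CLK3 and CLK4 passed the test.

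CLK2 did not share this pattern. It measured 28.6, 27.1 and 31.0 CPM in Ctrl scramble, 30.4, 32.9 and 28.0 in HS scramble, and 46.2, 42.6 and 40.6 in HS+REC scramble. In siLonp1 cells the values were 23.2, 25.0 and 22.9 CPM in Ctrl, 18.4, 19.7 and 21.3 in HS, and 32.9, 32.1 and 39.9 in HS+REC. Ctrl and HS libraries overlapped in scramble cells, where the log2 difference was 0.08 (95% interval -0.10 to 0.25, adjusted p = 0.523), while in siLonp1 cells every HS library lay below every Ctrl library. There CLK2 fell by 0.26 on the log2 scale (SE 0.09, adjusted p = 0.0214). That call was lost when Ctrl siLonp1 replicate 2 (adjusted p = 0.0932), HS siLonp1 replicate 1 (0.103) or HS siLonp1 replicate 2 (0.0537) was left out. In HS+REC, CLK2 rose in both arms, by 0.58 (SE 0.08, adjusted p = 5.82e-06) in scramble and 0.56 (SE 0.09, adjusted p = 7.97e-06) in siLonp1, each about the size of a 1.5-fold change (1.49-fold and 1.48-fold).

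The SRPKs changed little with heat. SRPK1 measured 139.5, 139 and 142 CPM in Ctrl scramble, 136, 122 and 127 in HS scramble, and 126, 129 and 117 in HS+REC scramble. It measured 159, 166 and 168 CPM in Ctrl siLonp1, 140.2, 151 and 143 in HS siLonp1, and 138, 156 and 135 in HS+REC siLonp1. Every heated library lay below every Ctrl library of its arm. The log2 difference in HS was -0.13 (SE 0.06, adjusted p = 0.106) in scramble, which did not pass, and -0.19 (SE 0.06, adjusted p = 0.0168) in siLonp1. In HS+REC, SRPK1 fell by 0.18 (SE 0.06, adjusted p = 0.0219) in scramble and by 0.20 (SE 0.06, adjusted p = 0.00819) in siLonp1. All 3 calls were lost on leaving out single libraries, with adjusted p of 0.0556 to 0.0664 in HS siLonp1 (without Ctrl siLonp1 replicate 3, HS siLonp1 replicate 1 or 3), 0.0642 and 0.106 in HS+REC scramble (without Ctrl scramble replicate 3 or HS+REC scramble replicate 3), and 0.0543 in HS+REC siLonp1 (without HS+REC siLonp1 replicate 3).

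SRPK2 measured 26.1, 23.6 and 25.5 CPM in Ctrl scramble, 28.3, 27.4 and 24.8 in HS scramble, and 27.5, 28.8 and 27.5 in HS+REC scramble. Its siLonp1 libraries held 38.4, 39.6 and 40.7 CPM in Ctrl, 45.8, 47.0 and 45.8 in HS, and 45.3, 49.6 and 39.3 in HS+REC. The heated and Ctrl libraries overlapped in HS scramble and in HS+REC siLonp1, and not in the other 2 comparisons. In siLonp1 cells SRPK2 rose by 0.22 (SE 0.07, adjusted p = 0.0148) in HS and by 0.18 (SE 0.07, adjusted p = 0.0424) in HS+REC. The scramble values were 0.10 (SE 0.07, adjusted p = 0.311) and 0.16 (SE 0.07, adjusted p = 0.0951). Scaling by library size only ended both calls (adjusted p = 0.0543 and 0.268), and applying no filter ended that in HS+REC (0.0988). The call in HS siLonp1 was lost without Ctrl siLonp1 replicate 1 (adjusted p = 0.0601). That in HS+REC siLonp1 was lost without any one of 5 of the 6 libraries compared, all but HS+REC siLonp1 replicate 3, with adjusted p of 0.0532 to 0.268.

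**Figure D2:**
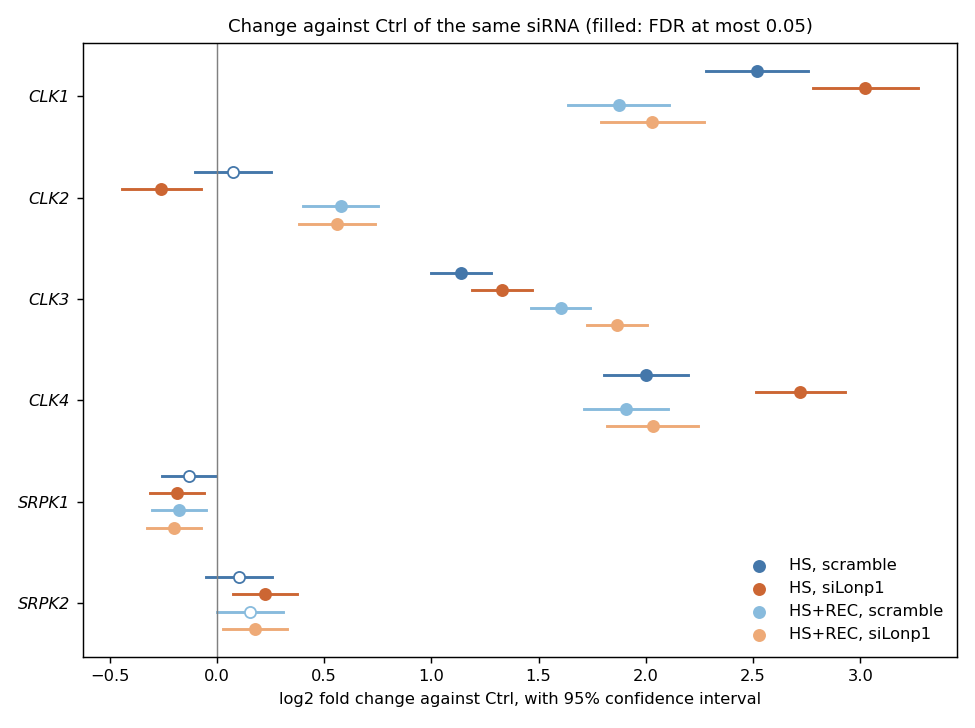
log2 fold change against Ctrl of the same siRNA arm (x axis) with its 95% confidence interval, for each kinase (y axis) in HS and HS+REC of both arms. Filled points passed an adjusted p of at most 0.05. CLK1 (1.87 to 3.02), CLK4 (1.91 to 2.72) and CLK3 (1.14 to 1.87) stand apart from SRPK1 (-0.20 to -0.13) and SRPK2 (0.10 to 0.22).

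In HS+REC against Ctrl, 4 of 6 members rose and 1 fell in scramble cells, where 21.8% of genes tested rose and 20.5% fell. Of these CLK1, CLK3 and CLK4 were over 2-fold higher, which 3.78% of all genes were. In siLonp1 cells 5 rose and 1 fell, beside 24.6% and 26.6% of all genes, and again 3 members were over 2-fold higher, beside 4.51%. With library size only, 16.3% of all genes rose and 30.4% fell in scramble, and 18.8% and 34.7% in siLonp1, with 4 members higher and 1 lower in each. The HS and HS+REC comparisons share their Ctrl libraries, so they are not independent of each other.

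The 3 members that rose over 2-fold are shown by the sequence before their start sites, from the RefSeq promoter table on GRCh38.p14, in which all 6 members had a window of 300 bases (250 before and 50 after the start; 11 windows in all). Each printed run is the longest stretch of the 250 bases before the canonical start that overlaps no annotated exon of the gene. Those of CLK3 and CLK4 lie inside the annotated span of the gene, which reaches further upstream. Capitals mark GGGCGG (the GC box), CACGTG (an E-box) and TGACGT on either strand. In CLK4 the last of these overlap each other.
CLK1 (chr2:200864692-200864908, minus strand): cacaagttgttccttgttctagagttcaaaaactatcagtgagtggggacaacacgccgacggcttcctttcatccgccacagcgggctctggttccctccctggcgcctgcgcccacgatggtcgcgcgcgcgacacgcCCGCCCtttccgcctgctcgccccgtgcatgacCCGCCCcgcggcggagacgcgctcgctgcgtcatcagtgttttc
CLK4 (chr5:178627113-178627300, minus strand): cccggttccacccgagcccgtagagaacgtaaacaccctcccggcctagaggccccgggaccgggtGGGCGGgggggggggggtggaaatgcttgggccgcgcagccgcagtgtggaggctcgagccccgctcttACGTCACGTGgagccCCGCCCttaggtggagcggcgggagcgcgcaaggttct
CLK3 (chr15:74615586-74615795, plus strand): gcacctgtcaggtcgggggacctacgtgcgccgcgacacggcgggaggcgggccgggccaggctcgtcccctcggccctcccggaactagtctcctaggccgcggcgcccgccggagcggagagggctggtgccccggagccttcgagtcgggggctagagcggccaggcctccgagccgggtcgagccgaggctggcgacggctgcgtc
The heat shock element, bound by heat shock factors, is built of GAA units in alternating orientation. Neither pair of units, GAANNTTC or TTCNNGAA, was found on either strand in any of the 11 windows of the 6 members. Of all 35116 windows in the table, 13.5% held either pair, and 0.490% held 3 units in a row (which contain both pairs). GGGCGG was present in at least one window of all 6 members and in 45.0% of all windows. CACGTG was present for CLK2 and CLK4 (7.26% of all windows), TGACGT for CLK4 and SRPK2 (7.98%), CCAAT for CLK3 (34.6%) and TATAAA for SRPK2 (11.5%). Both SRPK2 matches lay in a window 119869 bases from the canonical start, and CCAAT of CLK3 in one 7464 bases away. A member counted if any of its windows matched, whereas the shares are per window. The GC content of the window at the canonical start was 62.7% for CLK1, 70.7% for CLK4 and 77.3% for CLK3, where the median over all windows was 58.7%. These are matches of letters in short windows, and a lack of matches says nothing of elements elsewhere.

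The hour of recovery separated members that the heat shock itself had raised. From HS to HS+REC in scramble cells, 2 of 6 members rose and 1 fell, beside 14.2% and 12.7% of all genes (10.1% and 17.8% with library size only). CLK1 fell by 0.64 (SE 0.11, adjusted p = 6.21e-05), while CLK2 rose by 0.50 (SE 0.08, adjusted p = 6.91e-05) and CLK3 by 0.46 (SE 0.06, adjusted p = 5.81e-06). CLK4 did not pass, with a difference of -0.09 (95% interval -0.27 to 0.08). In siLonp1 cells 2 rose and 2 fell, beside 16.3% and 15.6% of all genes. CLK1 fell by 0.99 (SE 0.11, adjusted p = 1.21e-07) and CLK4 by 0.69 (SE 0.09, adjusted p = 9.6e-07), while CLK2 rose by 0.82 (SE 0.09, adjusted p = 8.53e-08) and CLK3 by 0.54 (SE 0.06, adjusted p = 5.06e-07). For the SRPKs this step was within -0.05 to 0.05 in both arms and did not pass, and the intervals of all 4 values lay within -0.19 and 0.21. CLK1 libraries in HS+REC were also the most scattered of this gene, at 104.0 ± 16.2 CPM in scramble and 99.1 ± 19.6 in siLonp1 (SD, n = 3).

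Lonp1 silencing moved the SRPKs up and CLK2 down at every treatment. In Ctrl, 2 of 6 members were higher in siLonp1 than in scramble and 2 were lower, where 26.3% of all genes were higher and 22.9% lower. In HS, 3 were higher and 1 lower, beside 28.1% and 26.7%. In HS+REC, 3 were higher and 2 lower, beside 26.8% and 27.3%. The background depended on the scaling. With library size only, 19.6%, 20% and 20.7% of all genes were higher in Ctrl, HS and HS+REC and 30.5%, 37% and 34.6% lower, and the members numbered 2, 1 and 1 higher and 3, 1 and 2 lower. SRPK2 was the member with the greatest difference in each of the 3.

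SRPK2 was higher in every siLonp1 library (38.4 to 49.6 CPM) than in every scramble library (23.6 to 28.8 CPM). The log2 difference was 0.66 (SE 0.07, adjusted p = 1.41e-07) in Ctrl, 0.78 (SE 0.07, adjusted p = 9.3e-09) in HS and 0.68 (SE 0.07, adjusted p = 5.87e-08) in HS+REC, or 1.58-fold, 1.72-fold and 1.6-fold. SRPK1 was higher by 0.23 (SE 0.06, adjusted p = 0.00334), 0.17 (adjusted p = 0.0204) and 0.21 (adjusted p = 0.0067). Leaving out replicate 2 of HS scramble (adjusted p = 0.0976), replicate 3 of HS scramble (0.0518) or replicate 2 of HS siLonp1 (0.0906) removed the SRPK1 call in HS, and replicate 2 of HS+REC siLonp1 removed that in HS+REC (0.0566). The ratio of SRPK1 to SRPK2 counts was 5.6 ± 0.289 in Ctrl scramble and 4.15 ± 0.0329 in Ctrl siLonp1 (SD, n = 3).

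CLK2 was lower in siLonp1 by 0.29 (SE 0.09, adjusted p = 0.00844) in Ctrl, 0.62 (SE 0.09, adjusted p = 3.21e-06) in HS and 0.30 (SE 0.08, adjusted p = 0.0041) in HS+REC, and its arms did not overlap at any treatment. The Ctrl call was lost without Ctrl scramble replicate 3 (adjusted p = 0.0551). CLK3 differed by -0.07 (adjusted p = 0.421) in Ctrl and 0.12 (adjusted p = 0.113) in HS, and was higher by 0.19 (SE 0.06, adjusted p = 0.0129) in HS+REC. The last call was lost without HS+REC siLonp1 replicate 1 (adjusted p = 0.106) and with only the groups compared (0.0644).

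For CLK1 and CLK4 the estimated difference between the arms was negative in Ctrl and HS+REC and positive in HS. Neither gene passed the test in both directions. CLK4 was lower in siLonp1 by 0.53 (SE 0.11, adjusted p = 0.000411) in Ctrl and by 0.40 (SE 0.09, adjusted p = 0.000461) in HS+REC. In HS the difference was 0.20 (SE 0.08, adjusted p = 0.0529), with the lowest siLonp1 library only just above the highest scramble library. That value passed without HS scramble replicate 3 (adjusted p = 0.0428) or HS siLonp1 replicate 2 (0.0305), and also with no filter (0.0454) and with only the groups compared (0.0403). CLK1 differed by -0.23 (SE 0.12, adjusted p = 0.112) in Ctrl and by -0.07 (SE 0.11, adjusted p = 0.607) in HS+REC, and was higher by 0.28 (SE 0.11, adjusted p = 0.0302) in HS. Its Ctrl value passed with library size only (adjusted p = 0.0316), with no filter (0.0356) and with only the groups compared (0.000995). The CLK1 call in HS needed replicates 1 and 2 of HS scramble and replicates 1 and 3 of HS siLonp1, since without any one of them the adjusted p was 0.0809 to 0.102.

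Scaling by library size only, which shifted the median of all genes by -0.097 for siLonp1 against scramble in HS, also ended the calls of SRPK1 (adjusted p = 0.306 in HS and 0.0688 in HS+REC), of CLK1 in HS (0.139) and of CLK3 in HS+REC (0.104). The calls of SRPK2 and CLK2, and of CLK4 in Ctrl and HS+REC, were kept in each setting tried, apart from left-out libraries.

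**Figure D3:**
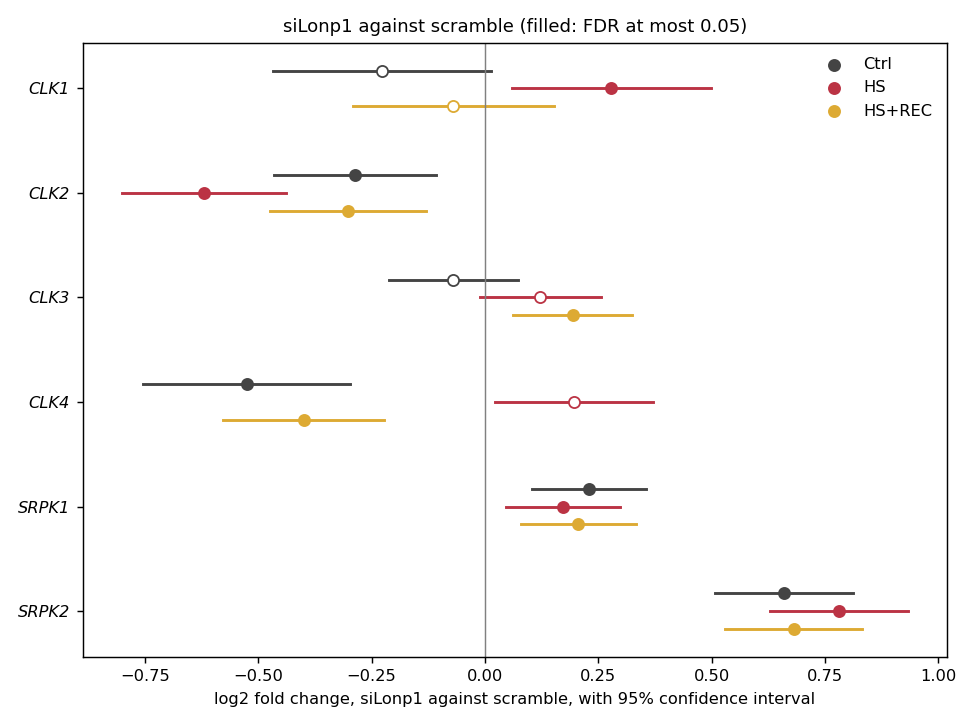
log2 fold change of siLonp1 against scramble (x axis) with its 95% confidence interval, for each kinase (y axis) in Ctrl, HS and HS+REC. Filled points passed an adjusted p of at most 0.05. SRPK2 lies between 0.66 and 0.78 at all treatments, CLK2 lies between -0.62 and -0.29, and CLK4 is at -0.53, 0.20 and -0.40.

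The difference in heat response between the arms was tested as an interaction. For HS against Ctrl, 1 of 6 members passed, CLK4, and 0.475% of all genes passed in its direction. That share was 61 genes, and with 1 library left out 31 to 163 genes passed. The rise of CLK4 was greater in siLonp1 by 0.72 on the log2 scale (SE 0.14, 95% interval 0.43 to 1.01, adjusted p = 0.00649), and the value stayed past its threshold in all 20 alternatives, from 0.67 to 0.80. CLK4 was lower in siLonp1 than in scramble at Ctrl, so its greater rise started from a lower level. For CLK1 the difference was 0.51 (SE 0.16, 95% interval 0.18 to 0.83, adjusted p = 0.10), which did not pass but did so in 3 of 20 alternatives. CLK2 (-0.33, adjusted p = 0.182) and CLK3 (0.19, adjusted p = 0.338) did not pass, nor did SRPK1 (-0.06) and SRPK2 (0.12).

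For HS+REC against Ctrl, 0 of 6 members passed, beside 1.58% of all genes in either direction. With 1 library left out, 44 to 132 genes were higher and 49 to 172 lower, in place of 88 and 115. Of the 6, CLK3 had the lowest adjusted p, with 0.26 (SE 0.09, adjusted p = 0.177). DESeq2 called 0 of 6 as well, beside 155 genes higher and 162 lower of 12832. The step from HS to HS+REC was compared between the arms after the values were seen. There CLK4 fell further in siLonp1, by 0.60 (SE 0.12, 95% interval -0.85 to -0.35, adjusted p = 0.0105), and 0.288% of all genes passed in this direction. These were 37 genes, and 17 to 61 with 1 library left out. CLK1 differed by -0.35 (SE 0.15, adjusted p = 0.353) and did not pass. These interactions share libraries with each other. The residual LONP1 level moved alongside them, at 20.4 CPM in Ctrl siLonp1, 11.7 in HS siLonp1 and 27.2 in HS+REC siLonp1, and its part in the CLK4 values was not tested.

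**Figure D4:**
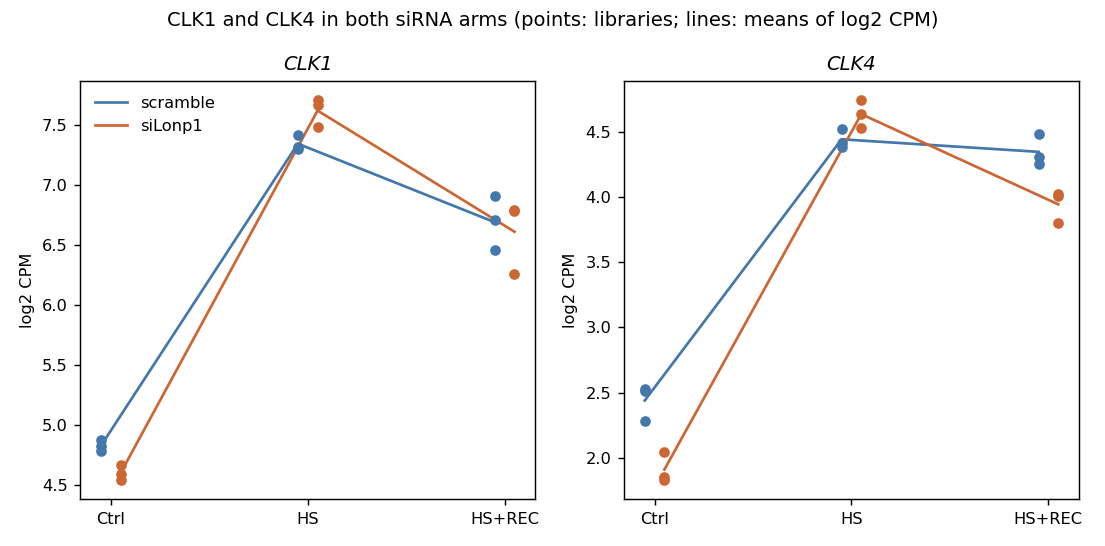
log2 CPM (y axis) of CLK1 and CLK4 in Ctrl, HS and HS+REC (x axis), with a point for each library and lines through the means of the 3 libraries of each siRNA arm. The siLonp1 line of CLK4 starts below the scramble line in Ctrl, passes it in HS and is below it again in HS+REC.

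CLK1 and CLK4 followed each other closely, with Pearson's r = 0.979 between their log2 CPM over the 18 libraries, which share treatments and arms. CLK3 correlated with CLK4 at r = 0.878 and with CLK1 at 0.823, and CLK2 with CLK1 at 0.0403. The ratio of CLK1 to CLK4 counts was 5.24 ± 0.529 in Ctrl scramble, 7.48 ± 0.124 in HS scramble and 5.09 ± 0.420 in HS+REC scramble (SD, n = 3). In siLonp1 it was 6.44 ± 0.255, 7.92 ± 0.211 and 6.38 ± 0.768. Over all genes tested, the 3 most like CLK1 were ZNF79 (r = 0.990), EIF4A2 (0.989) and CDKN2AIP (0.986), and for CLK4 they were DDIT4 (0.989), WSB1 (0.988) and KIAA0907 (0.987). CLK3 was most like CLU (0.996), HSPH1 (0.992) and TRIM16 (0.992), of which CLU and HSPH1 encode chaperones. The nearest to CLK2 were TTI1 (0.974), DHX34 (0.958) and ARRB1 (0.951), to SRPK1 MOB1A (0.956), SERPINB8 (0.956) and ESYT2 (0.955), and to SRPK2 ETS1 (0.981), VANGL2 (0.978) and ZNF512 (0.978).

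To compare levels between the kinases, CPM was divided by the length of the canonical transcript in kilobases. In Ctrl scramble SRPK1 was the most abundant at 32.2 ± 0.300 CPM per kb, followed by CLK1 at 15.4 ± 0.464, CLK2 at 13.4 ± 0.912, CLK3 at 11.5 ± 0.240, SRPK2 at 6.81 ± 0.360 and CLK4 at 2.17 ± 0.203 (SD, n = 3). CLK1 libraries (14.9 to 15.8) lay above those of CLK2 (12.6 to 14.4), and the other neighbours in this order did not overlap either. In HS scramble the first place went to CLK1 at 88 ± 3.88 CPM per kb, above SRPK1 at 29.5 ± 1.58 and CLK3 at 25.4 ± 0.574. In HS siLonp1 it was at 107 ± 8.5, and the lowest 3 were SRPK2 at 12.6 ± 0.181, CLK4 at 9.94 ± 0.747 and CLK2 at 9.20 ± 0.685, of which CLK4 and CLK2 overlapped. With the merged length of all annotated exons in place of the canonical length, SRPK1 was again first in both Ctrl groups and CLK1 in both HS groups, but the order below them changed. CLK3 moved most, to the last place in both HS groups, at 2.39 ± 0.0540 in scramble and 2.60 ± 0.0503 in siLonp1, and to the fifth in both HS+REC groups. SRPK2 was not among the lowest 3 in HS siLonp1 on this length, and CLK2 lay above CLK1 in both Ctrl groups. The places of CLK2, CLK3 and SRPK2 thus depended on the length used. In HS+REC siLonp1 CLK1 was first on the canonical length, at 53.6 ± 10.6, but SRPK1 on the merged length, at 21.4 ± 1.69 beside 19.4 ± 3.82.

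Of 11 related kinases (SRPK3, 5 DYRKs, PRPF4B and 4 cyclin-dependent kinases of splicing and transcription), 4 rose and 0 fell in HS scramble (18.6% and 17.3% of all genes), and 2 rose and 1 fell in HS siLonp1 (20.2% and 22.1%), with 0 over 2-fold in either. Of the 4, CDK11B lost its call without any one of 5 of the 6 libraries compared, all but HS scramble replicate 3 (adjusted p = 0.0520 to 0.142), and without HS scramble replicate 2 both it (0.131) and SRPK3 (0.0891) were lost. The median log2 fold change of the 11 was 0.21 in HS scramble, beside -0.01 over all genes. DYRK1A, a kinase that also phosphorylates SR proteins, measured 56.7, 50.2 and 51.9 CPM in Ctrl scramble and 88.5, 83.9 and 80.3 in HS scramble, a rise of 0.67 (SE 0.07, adjusted p = 2.12e-08). In siLonp1 it rose by 0.49 (SE 0.07, adjusted p = 1.38e-06). CDK13 rose by 0.34 (SE 0.07, adjusted p = 0.00055) in HS scramble and 0.27 (SE 0.07, adjusted p = 0.00323) in HS siLonp1. DYRK2 fell by 0.62 (SE 0.08, adjusted p = 1.41e-06) in HS siLonp1, from 21.7, 22 and 22.1 CPM to 13.5, 14.6 and 14.6. In scramble it measured 19.9, 16.5 and 19.8 CPM in Ctrl and 17.1, 18.5 and 17.4 in HS (log2 -0.08, SE 0.08, adjusted p = 0.468). The difference between the arms was -0.54 (SE 0.12, adjusted p = 0.0155), and that call was lost when replicate 2 of Ctrl scramble (adjusted p = 0.0629), replicate 2 of HS scramble (0.0548) or replicate 1 of HS siLonp1 (0.0542) was left out. In HS+REC, 4 of the 11 rose and 1 fell in scramble (21.8% and 20.5% of all genes), and 4 rose and 3 fell in siLonp1 (24.6% and 26.6%). DYRK2 fell there by 0.59 (SE 0.08, adjusted p = 3.85e-06) and 0.68 (SE 0.08, adjusted p = 3.09e-07). CDK11A rose in HS+REC, by 0.54 (SE 0.08, adjusted p = 1.26e-05) in scramble and 0.60 (SE 0.09, adjusted p = 2.66e-06) in siLonp1. SRPK3, the muscle form of SRPK, is one of the 4 that rose in HS scramble, but was at 0.352 ± 0.0344 CPM in Ctrl scramble and 0.678 ± 0.122 in HS scramble (SD, n = 3), a log2 difference of 0.95 (95% interval 0.34 to 1.55), which is 1.93-fold. That interval holds the 1.14 of CLK3 in the same comparison, and the sizes were not tested against each other. It passed the filter through the siLonp1 groups, so its difference between the arms is not given.

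Of 14 SR and SR-like proteins listed, 13 were tested (SRSF12 had at most 2 counts in any library). In HS, 3 rose, 5 fell and 5 did not pass in each arm, beside 18.6% and 17.3% of all genes rising and falling in scramble and 20.2% and 22.1% in siLonp1, with medians of -0.09 and -0.08 beside -0.01 and 0.00 over all genes. SRSF11 rose by 0.47 (SE 0.06, adjusted p = 2.11e-06) in HS scramble and 0.67 (SE 0.06, adjusted p = 5.43e-09) in HS siLonp1. SRSF7 had the largest fall in HS scramble, by 0.43 (SE 0.07, adjusted p = 1.27e-05), and SRSF2 that in HS siLonp1, by 0.64 (SE 0.06, adjusted p = 1.75e-09). SRSF6 fell by 0.35 (SE 0.06, adjusted p = 4.27e-05) and 0.51 (SE 0.06, adjusted p = 1.42e-07) in the same comparisons. TRA2B, which controls exons of many transcripts including its own, measured 385, 369 and 376 CPM in Ctrl scramble and 567, 654 and 619 in HS+REC scramble, a rise of 0.70 (SE 0.07, adjusted p = 9.07e-09). In HS+REC 3 rose and 4 fell in scramble (21.8% and 20.5% of all genes), and 3 rose and 5 fell in siLonp1 (24.6% and 26.6%). For HS+REC against Ctrl, 4 of the 13 differed between the arms, all lower in siLonp1. In this direction 0.896% of all genes passed, or 115, and 49 to 172 with 1 library left out. Among the 4 were SRSF4 by -0.49 (SE 0.08, adjusted p = 0.00261) and SRSF6 by -0.38 (SE 0.08, adjusted p = 0.0147). The others were SRSF5 (-0.34) and SRSF2 (-0.31), whose calls were lost without any one of several libraries, with adjusted p of up to 0.0642 and 0.107. For HS against Ctrl, 0 of the 13 differed between the arms by edgeR, beside 1.87% of all genes in either direction. By DESeq2 1 was higher and 1 lower, beside 123 and 317 of 12832 genes. For the step from HS to HS+REC, 2 were lower in siLonp1 by edgeR, TRA2A and SRSF5, beside 0.288% of all genes. Dropping HS scramble replicate 1 ended both calls (adjusted p = 0.0674 for TRA2A and 0.0629 for SRSF5). TRA2A also missed the limit at 0.0518 with HS scramble lacking replicate 2, and at 0.0584 with HS siLonp1 lacking replicate 1.

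Of the 5 genes that act against or after the kinases (PPP1CA, PPP1CB and PPP1CC, the catalytic subunits of protein phosphatase 1, PPM1G, and the importer TNPO3), 0 rose and 1 fell in HS scramble (18.6% and 17.3% of all genes), and 0 rose and 2 fell in HS siLonp1 (20.2% and 22.1%). PPP1CB fell by 0.19 (SE 0.07) in each, with adjusted p of 0.0264 and 0.0236, and both calls were lost on leaving out single libraries (highest adjusted p 0.168, without HS scramble replicate 2, and 0.139, without Ctrl siLonp1 replicate 3). PPM1G, the second in HS siLonp1, fell by 0.16 (SE 0.06), a call lost without Ctrl siLonp1 replicate 1 (adjusted p = 0.0974) or 2 (0.102) or HS siLonp1 replicate 1 (0.121). Without the last of these libraries PPP1CB was lost too (0.0550), so that 0 of the 2 remained. TNPO3 rose in HS+REC, by 0.25 (SE 0.06, adjusted p = 0.000765) in scramble and 0.22 (SE 0.06, adjusted p = 0.00213) in siLonp1. In siLonp1 against scramble, 3, 3 and 2 of the 5 were higher in Ctrl, HS and HS+REC (26.3%, 28.1% and 26.8% of all genes). At these treatments 1, 2 and 2 were lower (22.9%, 26.7% and 27.3%). TNPO3 was lower at each treatment, by 0.23 to 0.29. PPP1CC was higher at each, by 0.35 to 0.40, and so was PPP1CB, by 0.23 to 0.31. In the same comparison 7, 6 and 1 of the 13 SR proteins were higher in Ctrl, HS and HS+REC and 1, 1 and 2 were lower, beside 26.3%, 28.1% and 26.8% of all genes higher and 22.9%, 26.7% and 27.3% lower. The 1 higher in HS+REC, TRA2A (0.18, SE 0.06, adjusted p = 0.0135), was lost without replicate 1 of either arm (0.0594 for scramble and 0.0533 for siLonp1). Of the 10 related kinases other than SRPK3, 4, 3 and 3 were higher and 4, 5 and 4 lower.

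**Figure D5:**
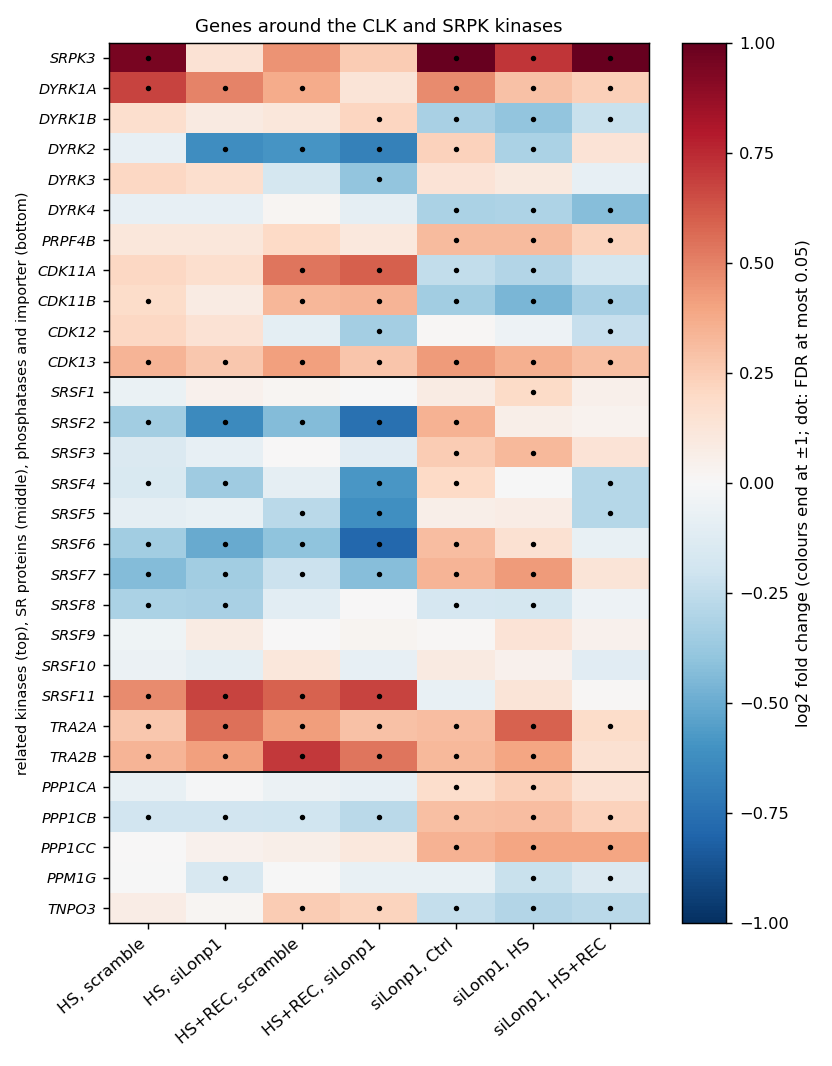
log2 fold change (colour, ending at ±1) of 29 tested genes around the CLK and SRPK kinases (y axis) in 7 comparisons (x axis), with a dot where the adjusted p was at most 0.05. SRSF11, TRA2A and TRA2B are higher in all heated groups, while SRSF2, SRSF6 and SRSF7 are lower in all of them.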

How the data were processed

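RNA of SW620 cells was extracted with a column kit and libraries were made with a TruSeq stranded kit and sequenced in paired ends. Per the labels and the study's methods, the authors mapped reads with STAR 2.7.3a to hg38 and counted them per UCSC gene with featureCounts in R 3.6.3. The deposited values are raw counts, and the setting for strand and for reads with several matches is not given in the sources used here. Samples were grouped by treatment and siRNA as labelled, 3 per group, which the methods call independent biological replicates. No replicate pair agreed within sampling noise. The methods name a pair of siRNAs against Lonp1, and whether they were pooled for these libraries is not given in the sources used here.

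Counts were normalised by TMM and fitted in edgeR 4.0.16 (R 4.3.3, glmQLFit and glmQLFTest) with 1 mean per group over all 18 libraries, after dropping genes that did not exceed 1 CPM in 3 or more libraries. P-values are two-sided and were adjusted over all 12832 genes by Benjamini-Hochberg. An adjusted p of at most 0.05 counts as a rise or fall, and changes over 2-fold were counted apart. Standard errors were taken from the F statistic. CPM are TMM-scaled. The procedure was tested on simulated data. DESeq2 1.42.0, other scalings and filters, a replicate block, a limit of 0.01 and leaving out each library were the alternatives. Members and lists of related genes were chosen with earlier results of these data known. The rule names the members, LONP1, the 3 genes most like each member, and of each list and comparison at most 4 genes past the test with libraries apart and the largest changes. The text gives part of these list genes, chosen with their values seen. The comparison of the arms from HS to HS+REC was added after the data were seen, and motifs other than the heat shock element were chosen then too. Promoter windows come from RefSeq on GRCh38.p14, and lengths from GENCODE release 44, not the annotation used for counting.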

Additional observations from a re-analysis of the deposited data

Results flagged for a closer look

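CLK4 was the member whose response differed between the siRNA arms by a test of the difference itself. Its rise from Ctrl to HS was greater in siLonp1 than in scramble by 0.72 on the log2 scale (SE 0.14, edgeR adjusted p = 0.00649). Its step from HS to HS+REC differed by -0.60 (SE 0.12, edgeR adjusted p = 0.0105), a comparison added after the values were seen. Both share the 3 HS siLonp1 libraries, at 26.8, 23.0 and 24.9 CPM, and the 3 HS scramble libraries, at 20.9, 21.3 and 23.0 CPM. Between the arms CLK4 differed by 0.20 in HS, which did not pass (edgeR adjusted p = 0.0529). In Ctrl (-0.53) and HS+REC (-0.40) the arms did differ by that test. With any one library left out, the interaction values were 0.67 to 0.80 and -0.65 to -0.53, and all 12 fits of each passed.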

How the results depend on the processing

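The values of the 6 members were recomputed in 12 comparisons under 8 other settings and without each library in turn. Of 576 values under other settings, 547 kept their direction and their side of the threshold, 17 lost the call, 9 gained it and 3 changed sign. Of 540 values with 1 library left out the numbers were 495, 25, 2 and 18. With a limit of 0.01 the number of members past the test was 3 in place of 6 for HS in siLonp1, 2 in place of 4 for siLonp1 in HS, and 0 in place of 1 for the arms from HS to HS+REC. With scaling by library size only it was 2 for siLonp1 in HS and 3 in place of 5 for siLonp1 in HS+REC. The interaction with HS gave 2 in place of 1 with no filter, with DESeq2 and with only the groups compared, CLK1 being the addition, and the arms from HS to HS+REC gave 2 with no filter. Leaving out libraries moved the number between 2 and 4 for siLonp1 in HS. The causes were not tested.

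Every value that changed sign had not passed the test. SRPK2 from HS to HS+REC in scramble was -0.0027 by library size only, and CLK2 in the interaction with HS+REC was 0.00079 with RLE and 0.00093 with DESeq2. With libraries left out the ranges were -0.011 to 0.094 for SRPK2, HS+REC against HS in scramble, -0.081 to 0.025 for SRPK1, HS+REC against HS in siLonp1, -0.13 to 0.040 for SRPK2, HS+REC against HS in siLonp1, -0.18 to 0.086 for CLK1, siLonp1 effect in HS+REC, -0.12 to 0.043 for CLK2, interaction of siLonp1 and HS+REC, -0.089 to 0.017 for SRPK1, interaction of siLonp1 and HS+REC, -0.058 to 0.11 for SRPK2, interaction of siLonp1 and HS+REC and -0.033 to 0.074 for SRPK1, interaction of siLonp1 and HS+REC against HS. Same-numbered replicates deviated together in 6 of 27 pairs (r over 0.1), and in no comparison in all 3, so the numbers did not pair the samples. With a replicate block the number of members past the test was 3 for HS in scramble, 6 for HS in siLonp1, 5 and 6 for HS+REC, and 1 for the interaction with HS, each the same as without the block. For the 97 changes of list genes chosen by the naming rule, 1297 values kept their call, 95 lost it and 0 changed sign. Each member had 140 counts or more in each library, and no test at matched depth was run. No scaling moved the median of all genes by over 0.1, the largest shift being -0.097.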
